A study of Mus musculus with 2 samples.

Results

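Amphiregulin (Areg) and 9 other genes of secreted growth factors known from tissue repair were examined in regulatory T cells (Tregs) of bleomycin-injured mice. The 10 genes are Areg, Ereg, Hbegf and Tgfa of the epidermal growth factor (EGF) family, Vegfa and Vegfb of the vascular endothelial growth factor family, Pdgfa and Pdgfb of the platelet-derived growth factor family, and Igf1 and Hgf. They were taken by symbol, and all 10 were among the 24346 symbols listed in both libraries. The libraries came from Foxp3-DTR-GFP (FDG) mice, in which cells expressing Foxp3 carry GFP and the diphtheria toxin receptor (DTR). The mice were 10 to 16 weeks old and had received 50 µg of bleomycin (BLM), a drug that injures the lung and leads to fibrosis, into the trachea. The sort took GFP+CD4+ cells on day 15, and each of the 2 libraries, 1 of splenic Tregs and 1 of lung Tregs, holds cells pooled from 3 mice. Both libraries therefore share the genotype, the sort and BLM, and they differ in tissue. An effect of BLM on these genes cannot be read from them. With 1 pooled library per tissue, no value has a replicate check, no SD between mice exists and no p-value is given.

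Growth factors of the EGF family are made as membrane-anchored precursors, are released by proteases such as ADAM17, and bind EGFR and related receptor tyrosine kinases (ErbB) on neighbouring cells. Tregs that reside in tissues are known to make amphiregulin, which acts on epithelial and mesenchymal cells during the repair of injured muscle and lung, and IL-33 and IL-18 are known to induce it. The VEGF, PDGF, IGF and HGF families act through their own receptor tyrosine kinases on endothelium, pericytes and fibroblasts, many cell types, and epithelium, respectively.

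Areg lies on mouse chromosome 5 of GRCm38, the assembly also called mm10, at chr5:91139599-91148432 on the + strand in RefSeq, and has 6 exons. It sits in a row with 3 other EGF family genes, Epgn at chr5:91027517-91035212, Ereg at chr5:91074617-91093649 and Btc at chr5:91357261-91402994, which span 375.478 kb together. The 250 bases before the start sites of Areg, Epgn and Btc in RefSeq (GRCm38.p6) are shown because these neighbours share a locus but differed in level as described below. The windows are chr5:91139349-91139598 on the + strand for Areg, chr5:91027267-91027516 on the + strand for Epgn and chr5:91402995-91403244 on the - strand for Btc. Capitals mark TGACGTCA, the palindrome known as the cAMP response element, and TATAAA, a known core element of promoters.
Areg: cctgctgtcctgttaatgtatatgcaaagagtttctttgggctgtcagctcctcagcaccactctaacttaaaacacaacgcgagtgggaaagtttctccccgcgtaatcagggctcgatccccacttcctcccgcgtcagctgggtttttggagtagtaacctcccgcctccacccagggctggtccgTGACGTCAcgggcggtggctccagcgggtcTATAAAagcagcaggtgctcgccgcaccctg
Epgn: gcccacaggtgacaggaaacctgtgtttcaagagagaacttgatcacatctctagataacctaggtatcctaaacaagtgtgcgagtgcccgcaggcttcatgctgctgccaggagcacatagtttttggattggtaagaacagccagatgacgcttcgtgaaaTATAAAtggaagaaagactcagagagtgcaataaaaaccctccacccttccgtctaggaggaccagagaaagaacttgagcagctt
Btc: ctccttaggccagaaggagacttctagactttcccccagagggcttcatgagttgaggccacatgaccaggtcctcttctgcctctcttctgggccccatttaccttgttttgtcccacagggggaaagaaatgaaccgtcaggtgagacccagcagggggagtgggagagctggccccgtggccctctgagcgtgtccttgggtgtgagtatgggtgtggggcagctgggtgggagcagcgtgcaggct
In Areg the palindrome TGACGTCA began 61 bases before the start site and TATAAA began 31 bases before it. In Epgn TATAAA began 86 bases before the start site and the palindrome was not in the window. In Btc the window held neither. The first 5 letters of the palindrome, TGACG, were searched on both strands as well, a search in which the palindrome itself matches on either strand. Outside the palindrome, Areg held them 115 bases before its start on the reverse strand (CGTCA), Epgn 101 bases before its start and Btc 113 bases before its start on the reverse strand. Searched on both strands, TGACGTCA occurred in 508 of 32851 such windows of RefSeq mouse genes (1.55%), TATAAA in 12.4% and TGACG in 17.8%. Windows were at hand for 7 of the 10 genes, without Ereg, Hbegf and Pdgfb, and among them Areg was the one that held the palindrome. A match of letters is a description of the window and not evidence of binding.

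The values were FPKM as the authors computed them, that is, sequenced fragments scaled to the length of the gene's exons and to the size of the library, so levels can be compared between genes per length. Each ratio is the lung FPKM over the splenic FPKM after values under 0.1 had been set to 0.1. The summed FPKM was 599633 in splenic Tregs and 808853 in lung Tregs. From transcript lengths the reads behind each FPKM were estimated, 9650000 in spleen and 12630000 in lung in all, and each ratio is given with the 95% exact (Clopper-Pearson) interval that follows from the estimated reads of the gene. These intervals and limits cover the counting error of reads alone and say nothing of variation between mice. Because PCR copies of a molecule are counted separately, they are narrower than a count of molecules would give. Because the cells were profiled in bulk, a larger share of cells with a transcript and more transcript per cell cannot be told apart.

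The sort was checked against genes that define the cells. The 6 T cell genes summed to 2995 FPKM in spleen and 2888 in lung, and none differed by more than 2-fold. Foxp3, the transcription factor that defines Tregs, was at 18.7 FPKM in spleen and 41.8 FPKM in lung. The 5 Treg genes did not all differ in this way. Foxp3 and Ctla4 were more than 2-fold higher in lung and none was more than 2-fold lower. The other 3 differed by less than 2-fold, with Tnfrsf18 higher in lung and Il2ra and Ikzf2 lower. Genes of other cell types were present as well, and those of macrophages and lung epithelium summed to far more in the lung library. The 10 macrophage genes were all higher in lung, 7 of them by more than 2-fold. Of all symbols with at least 1 FPKM in either library, 51.5% were higher and 17.8% more than 2-fold higher. The macrophage genes summed to 678 FPKM in spleen and 27260 in lung, of which Lyz2 was 376 and 24947. Chil3 was at 17.4 and 1161, Cd68 at 43.0 and 368, C1qb at 129 and 560, Marco at 2.55 and 12.4, and Mertk at 3.14 and 15.0. The other 3, Csf1r (43.8 and 50.1), Adgre1 (14.6 and 24.3) and Mrc1 (7.64 and 9.41), differed by less than 2-fold. The 7 lung epithelial genes summed to 11.0 FPKM in spleen and 3130 in lung, of which Scgb1a1 made up 1.48 and 3021. Of the 7, 6 were more than 2-fold higher in lung and 1 more than 2-fold lower. The shares among symbols with at least 1 FPKM were 17.8% and 15.5%. The lower gene was Epcam, at 8.75 FPKM in spleen and 1.79 in lung. Many of the growth factors below are also made by such cells, and the part of these cells in each growth factor's level was not tested.

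**Figure D1:**
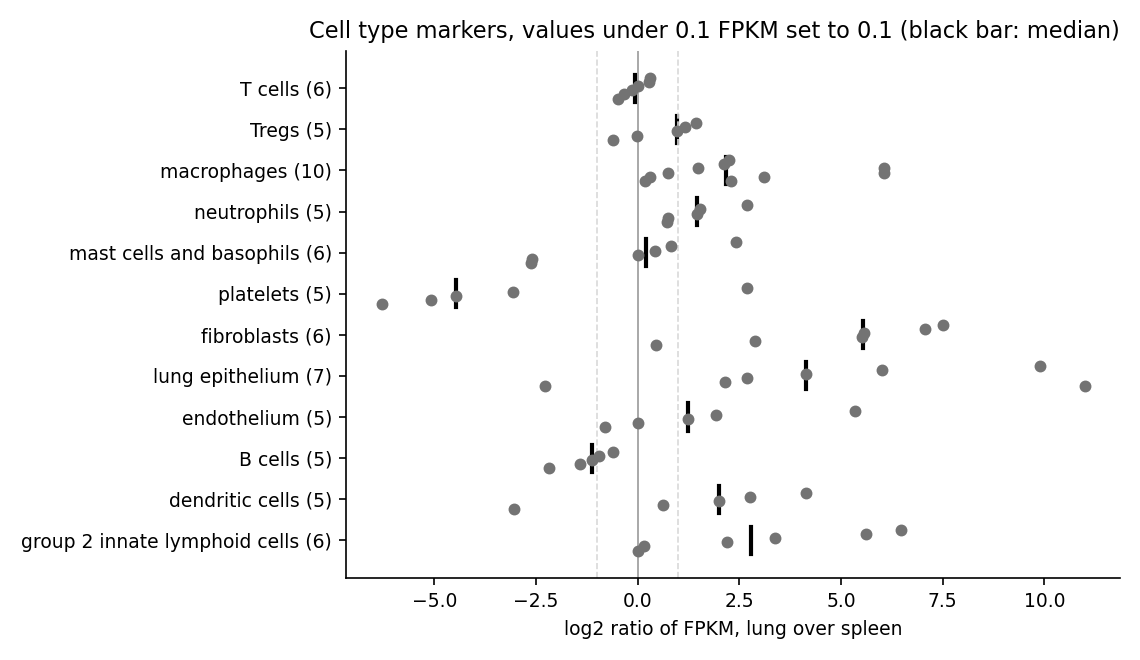
Log2 ratio of lung to splenic FPKM of each marker gene of 12 cell types after a floor of 0.1 FPKM. A black bar is at the median of each list and dashed lines are at 2-fold. The T cell list has a median of -0.07 and the macrophage list one of 2.18.

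Areg had the highest FPKM of the 10 growth factors in lung Tregs and the largest ratio, while in splenic Tregs it was at about the level of Vegfb and Igf1. It was at 5.84 FPKM in splenic Tregs and at 207 FPKM in lung Tregs, 35.5-fold higher in lung (interval 27.5 to 46.5, from about 61.0 and 2457 reads). Apart from Areg, the other EGF family member of the 10 with at least 1 FPKM, Hbegf, was 5.80-fold higher, Vegfa was higher in lung while Vegfb was lower, and Igf1, Hgf and Pdgfb were between 2.42-fold and 3.40-fold higher. Of the 10 genes, 7 were higher in lung, 1 was lower and 2 were equal after the floor. More than 2-fold higher were 6 of 10, against 11.0% of all symbols, and more than 2-fold lower was 1 of 10, against 11.7% of all symbols. Among symbols with at least 1 FPKM in either library, which 7 of the 10 genes reached, 17.8% were more than 2-fold higher and 15.5% more than 2-fold lower. The 10 genes had a median log2 ratio of 1.29, and all symbols one of 0. When both libraries were rescaled to TPM, a step that lowers the log2 ratio by 0.43 where both values are above the floor, 4 of the 10 genes were more than 2-fold higher and 1 was lower, and 13.1% and 25.9% of the symbols with at least 1 FPKM were.

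**Figure D2:**
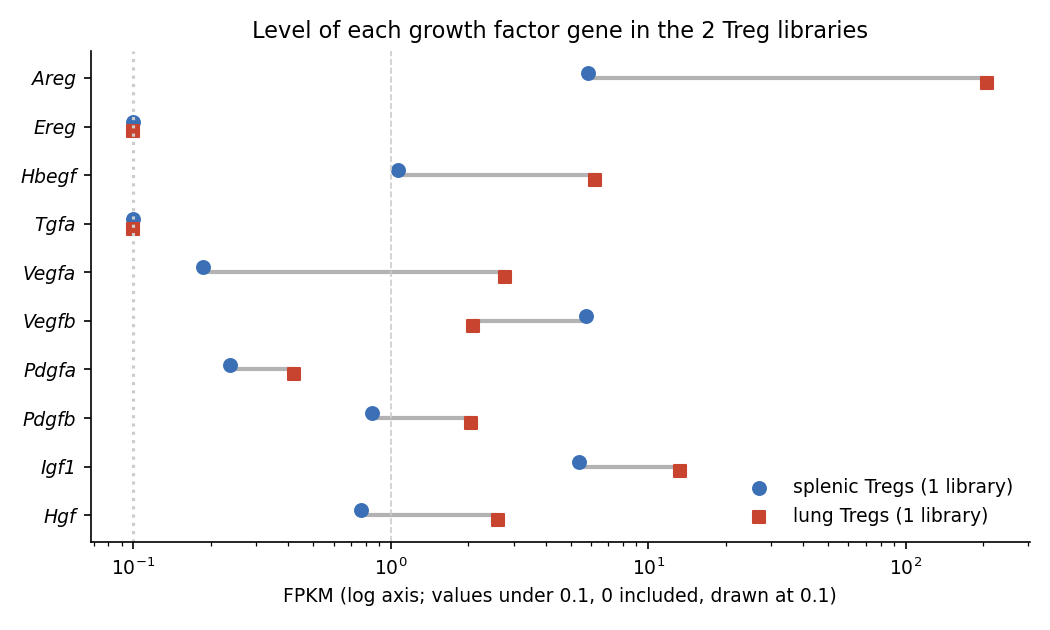
FPKM of the 10 growth factor genes in splenic and lung Tregs on a log axis, with 1 library per tissue. A grey line joins the values of a gene and is not an interval. Values under 0.1 FPKM are drawn at 0.1. Areg is at 5.84 FPKM in spleen and at 207 in lung, and the next gene in lung, Igf1, is at 13.3.

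The rank of Areg also differed between the libraries. In splenic Tregs it was at rank 7935 of the 24346 symbols, and in lung Tregs at rank 601, with 2.46% of symbols above it. The counting interval of its level was 4.47 to 7.51 FPKM in spleen and 199 to 216 in lung, so the levels are set apart by far more than the counting error of reads. It was the sole gene of the 10 that was more than 20-fold higher in lung, the threshold of the study, which 1.62% of all symbols and 3.27% of those with at least 1 FPKM passed. None of the 10 was more than 20-fold lower, against 1.17% and 2.35%. Among the 875 symbols whose mean FPKM lay within 1.5-fold of that of Areg, 1.03% had as high a ratio. After rescaling to TPM the ratio of Areg was 26.3, and it was again the sole gene of the 10 over 20-fold in either direction, against 3.15% of symbols with at least 1 FPKM that were higher and 3.80% that were lower. Areg made up 29.1% of the summed FPKM of the 10 genes in spleen and 87.5% in lung. That sum was 20.1 FPKM in spleen and 237 in lung, and without Areg it was 14.2 and 29.5, a 2.07-fold difference. Set against Foxp3 in the same library, Areg was at 0.312 FPKM per FPKM of Foxp3 in spleen and at 4.96 in lung.

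**Figure D3:**
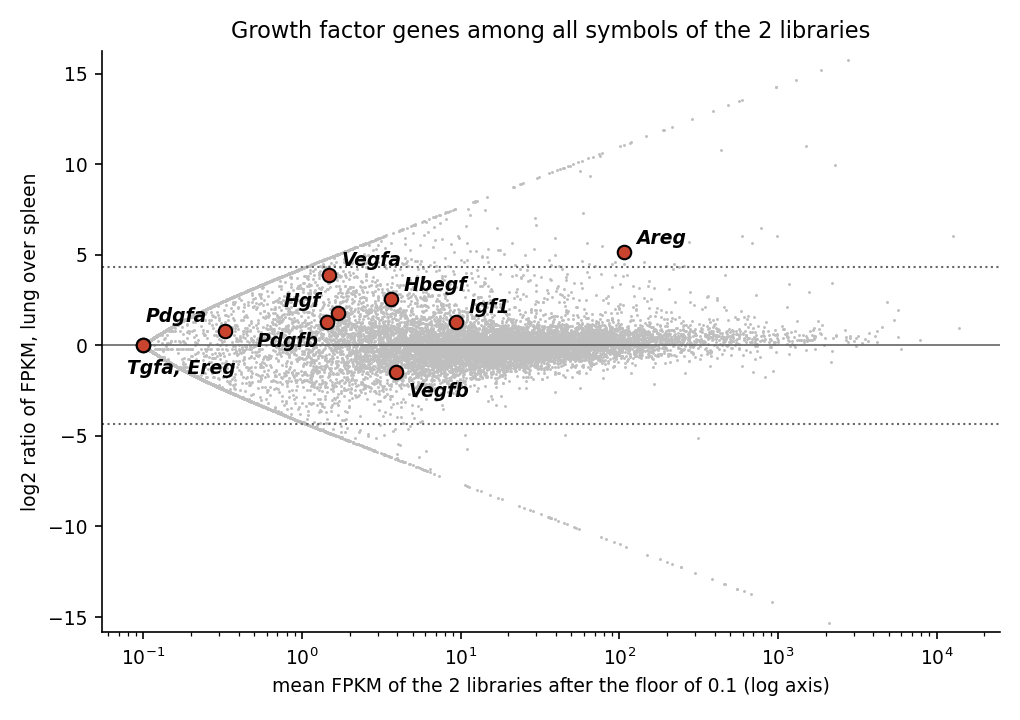
Log2 ratio of lung to splenic FPKM against the mean FPKM of the libraries (log axis) for all 24346 symbols in grey and the 10 growth factor genes in red, with dotted lines at 20-fold. Areg lies above the upper dotted line, and Vegfb is the 1 growth factor gene below 0.

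The EGF family neighbours of Areg on chromosome 5 did not share its level. Ereg, whose product epiregulin binds EGFR and ErbB4, was listed at 0 in both libraries, which allows up to 0.0738 FPKM in spleen and 0.0650 in lung with 3 reads. Epgn, the gene of epigen, was at 0.0645 FPKM in spleen, about 1.04 reads, and at 0 in lung. Btc, the gene of betacellulin, was at 0.253 FPKM in spleen and at 0 in lung. Thus of the 4 EGF family genes of the locus, Areg alone was at 1 FPKM or more in either library. On the side of Ereg, the chemokine gene Cxcl2 was at 4.41 FPKM in spleen and 83.1 FPKM in lung, with Mthfd2l between them at 1.85 and 2.67, and Cxcl1 at 0.260 and 0. Parm1, on the far side of Btc, was listed at 0 in both libraries.

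Hbegf encodes heparin-binding EGF-like growth factor, a ligand of EGFR and ErbB4 whose human membrane precursor is also the receptor of diphtheria toxin. It was at 1.07 FPKM in splenic Tregs and 6.19 in lung Tregs, 5.80-fold higher in lung (interval 3.76 to 9.32, from about 24.0 and 158 reads). Among symbols of like mean level, 9.87% had as high a ratio. The mice carry a DTR transgene driven by Foxp3 in both libraries, and whether reads of the transgene were counted under Hbegf was not tested. Relative to Foxp3 in the same library, the FPKM of Hbegf was 5.70% in spleen and 14.8% in lung. Tgfa, the gene of transforming growth factor alpha, an EGFR ligand, was listed at 0 in spleen and at 0.0423 FPKM in lung, about 2.15 reads. This is under the limit of 3 reads, so no ratio is given for Tgfa or for Ereg.

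The EGF family was otherwise low in these cells. Of its 11 ligand genes, 3 were more than 2-fold higher in lung (Areg, Hbegf and Nrg1) and 2 more than 2-fold lower (Btc and Egf), against 11.0% and 11.7% of all symbols, and the median log2 ratio was 0. Nrg1, Btc and Egf were each at 0 in 1 library, so their folds rest on the floor. Areg made up 52.7% of the family's ligand FPKM in spleen and 94.0% in lung. The next most abundant in spleen was Nrg4, a ligand of ErbB4, at 3.53 FPKM in spleen and 6.13 in lung. Nrg1, a ligand of ErbB3 and ErbB4, was listed at 0 in spleen and at 0.942 FPKM in lung. The receptors of these ligands were low in both libraries. Egfr, the receptor of amphiregulin, was at 0.0168 FPKM in spleen and 0 FPKM in lung, Erbb2 at 0.201 and 0, Erbb4 at 0 and 0.126, and Erbb3 at 2.48 and 0.869. None of the 4 receptor genes was more than 2-fold higher in lung, against 11.0% of all symbols. More than 2-fold lower were 2, against 11.7% of all symbols, namely Erbb3 and, by way of the floor, Erbb2.

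The genes for releasing the ligands were expressed in both libraries. Adam17, the protease that sheds amphiregulin and HB-EGF precursors, was at 25.2 FPKM in spleen and 32.8 FPKM in lung. Adam10, a related sheddase, was at 35.0 and 18.9. Rhbdf2, whose product iRhom2 is needed for the maturation of ADAM17 in immune cells, was at 5.95 and 6.50, while its relative Rhbdf1 was at 1.22 and 2.64. The ratio of Areg was larger than that of any of these genes, of which Rhbdf1 and Errfi1, a feedback inhibitor of EGFR (4.08 and 8.86), were just over 2-fold higher in lung. Genes of the response to IL-33 and IL-18 and of tissue Tregs were higher in lung by more than 2-fold in 6 of 10 cases and lower in none, against 17.8% higher and 15.5% lower among all symbols with at least 1 FPKM, as all 10 had. Their median log2 ratio was 1.56. Il1rl1, the gene of the IL-33 receptor ST2, was at 2.46 FPKM in spleen and 25.8 FPKM in lung. Il18r1, a chain of the IL-18 receptor, was at 12.9 and 16.1, and Gata3, a transcription factor of these cells, at 69.1 and 77.3. Batf was at 117 and 244, Pparg at 3.57 and 28.2, and Klrg1 at 34.2 and 169.

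The genes of the VEGF family differed in opposite directions. Vegfa, the main factor of vessel growth, was at 0.186 FPKM in splenic Tregs and 2.77 in lung Tregs, 14.9-fold higher in lung. The splenic value rests on about 3.40 reads and the lung value on 57.5, so the counting interval of the ratio runs from 5.44 to 83.5. Because Vegfa has transcripts of 5 lengths, its reads could be from 0.857 to 6.24 in spleen and from 14.5 to 106 in lung, and with the shortest length the interval of the ratio runs from 2.03 to 556. With a floor of 1 FPKM the log2 ratio of Vegfa is 1.47 in place of 3.90. Among symbols of like level 14.8% had as high a ratio. Vegfb, which binds FLT1 and is known for its part in the survival of cells rather than vessel growth, was the only gene of the 10 that was lower in lung. It was at 5.75 FPKM in spleen and 2.10 FPKM in lung, 2.74-fold lower in lung (interval 1.68 to 4.54, from about 60.3 and 24.9 reads). Among symbols of like level 13.3% had as low a ratio. The sum of Vegfa and Vegfb was 5.93 FPKM in spleen and 4.86 in lung, so the sums were close while the share of Vegfa was 3.13% in spleen and 56.9% in lung.

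Of the 5 VEGF ligand genes listed, 3 were more than 2-fold higher in lung and Vegfb alone was more than 2-fold lower, against 11.0% and 11.7% of all symbols, with a median log2 ratio of 1.10. Vegfc, which acts on lymphatic vessels, was at 0.807 FPKM in spleen and 1.73 FPKM in lung. Pgf, the gene of placental growth factor, was at 0.0912 and 0.482, from about 1.30 and 7.79 reads. The fold of Pgf rests on the floor, and its counting interval, 0.945 to 313, includes 1. Of the 5 receptors and coreceptors, 3 were more than 2-fold higher and none lower, against the same shares of all symbols. Kdr, the main receptor of VEGF-A, was at 0.0368 FPKM in spleen and 0 FPKM in lung. Flt1 was at 0.0635 and 0.937 and Flt4 at 0 and 1.39, so their folds rest on the floor. Nrp2 was at 0.308 and 4.13. The coreceptor Nrp1, which is also a surface marker of Tregs that arise in the thymus, was far higher, at 50.2 and 59.7, and differed by less than 2-fold. The 5 endothelial genes summed to 55.0 FPKM in spleen and 38.8 in lung, mostly from Pecam1, which leukocytes also express, at 54.8 and 31.7. Cdh5 was listed at 0 and 0.382, Cldn5 at 0.160 and 6.54, and Tek at 0 and 0.235. Of 8 targets of hypoxia, a condition known to induce Vegfa, 3 were more than 2-fold higher and 1 was more than 2-fold lower, again against 11.0% and 11.7%, with Adm at 0.493 and 7.39 FPKM, Slc2a1 at 23.7 and 17.2, and Pgk1 at 65.6 and 88.2.

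The PDGF genes, whose products drive fibroblasts and pericytes to divide, were low in both libraries. Pdgfb was at 0.847 FPKM in spleen and 2.05 FPKM in lung, 2.42-fold higher in lung (interval 1.50 to 4.04, from about 24.0 and 66.0 reads), and 32.4% of symbols of like level had as high a ratio. After rescaling to TPM the ratio was 1.80. Pdgfa was at 0.238 FPKM in spleen and 0.420 FPKM in lung. Its ratio of 1.76 was not distinguishable from 1 at this depth (interval 0.477 to 6.02, from about 4.57 and 9.15 reads). The related gene Pdgfc was at 0.380 and 5.22, and Pdgfd was listed at 0 in both libraries. Of 5 genes of platelets, a rich source of PDGF, 4 were listed at 0 in lung, as were 10638 of all 24346 symbols. These 4 were more than 2-fold lower in lung, against 11.7% of all symbols. The fifth, Pf4, was more than 2-fold higher, against 11.0%, at 10.2 FPKM in spleen and 65.5 FPKM in lung. In spleen the platelet gene Ppbp was at 7.85 FPKM. Of the PDGF receptors, Pdgfra was listed at 0 in spleen and at 0.736 FPKM in lung, beside fibroblast genes that summed to 0.290 FPKM in spleen and 47.2 in lung, and Pdgfrb was at 0 in both.

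Igf1 and Hgf, growth factors that macrophages and mesenchymal cells are known to make, were both higher in lung, by less than 4-fold. Igf1, the gene of insulin-like growth factor I, was the second most abundant of the 10 in lung. It was at 5.38 FPKM in spleen and 13.3 FPKM in lung, 2.48-fold higher (interval 1.85 to 3.32, from about 65.9 and 185 reads), and 9.01% of symbols of like level had as high a ratio. After rescaling to TPM the ratio was 1.84. In splenic Tregs Areg, Vegfb and Igf1 were at 5.84, 5.75 and 5.38 FPKM, and their counting intervals overlapped. The receptor gene Igf1r was lower in lung, at 4.52 FPKM in spleen and 1.46 in lung, as was Igf2r at 17.7 and 6.50, while Insr was at 6.05 and 11.3. Of 7 IGF binding protein genes, 3 were more than 2-fold higher in lung and none lower, again against 11.0% and 11.7% of all symbols. Igfbp7 was at 2.75 and 39.3 FPKM, and Igfbp4, the most abundant, at 121 and 210. Igfbp2 was at 0 and 3.95 and Igfbp6 at 0.0892 and 6.05, so their folds rest on the floor.

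Hgf, the gene of hepatocyte growth factor, which acts on epithelium through the receptor MET, was at 0.769 FPKM in spleen and 2.61 FPKM in lung, 3.40-fold higher (interval 2.08 to 5.78, from about 20.9 and 80.6 reads). Among symbols of like level 25.5% had as high a ratio, and after rescaling to TPM the ratio was 2.52. Its receptor gene Met was at 0.120 and 0.0527 FPKM. Of the 9 genes of the HGF pathway, 5 were more than 2-fold higher in lung and none lower, against 11.0% and 11.7% of all symbols. Their median log2 ratio was 1.24 over all 9 genes. Mst1r was at 0 and 0.535 FPKM and Plau at 0.0452 and 1.91, so their folds rest on the floor. Among the proteases that activate the HGF precursor, Hgfac was at 1.63 and 3.86 FPKM and St14 at 3.75 and 2.14. Among their inhibitors, Spint1 was at 0.374 and 8.39, and Spint2 at 108 and 96.4.

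**Figure D4:**
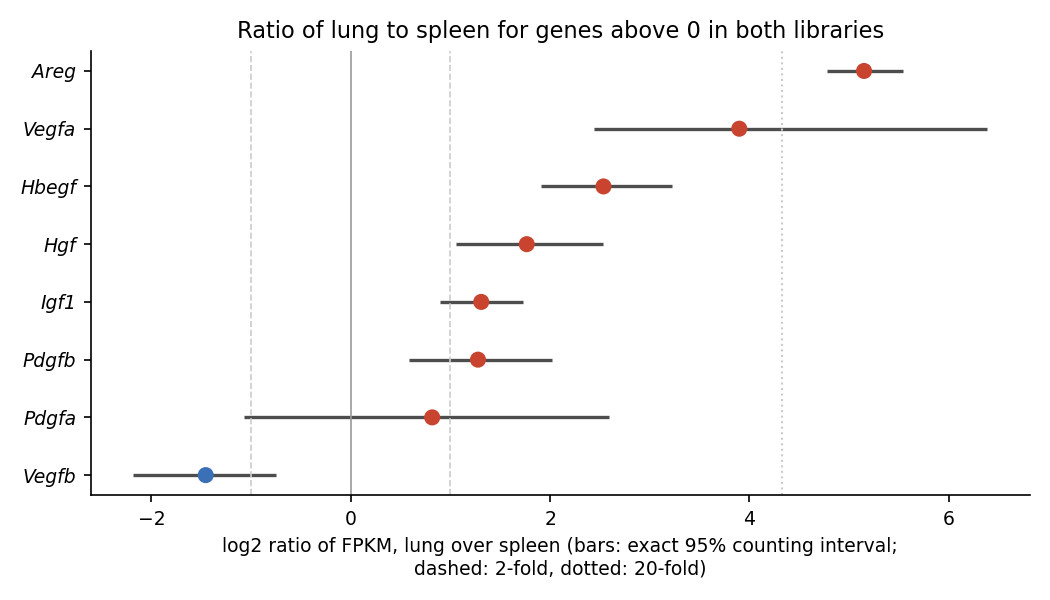
Log2 ratio of lung to splenic FPKM of the growth factor genes above 0 in both libraries, with exact 95% counting intervals from estimated reads, dashed lines at 2-fold and a dotted line at 20-fold. The interval of Areg lies above 20-fold, that of Vegfb lies below 0, and that of Pdgfa includes 0.

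In the order of levels in lung, Areg at 207 FPKM stood 15.6 times above Igf1 at 13.3, which was followed by Hbegf at 6.19. Next came Vegfa at 2.77, Hgf at 2.61, Vegfb at 2.10 and Pdgfb at 2.05, whose counting intervals overlapped, and then Pdgfa at 0.420. In the order of ratios, which leaves out Ereg and Tgfa, the interval of Areg lay above those of the other genes but Vegfa. The intervals of Hbegf, Hgf, Pdgfb and Pdgfa overlapped. That of Igf1 ended at 3.32, below the start of that of Hbegf at 3.76, but with the shortest transcript of Igf1 it ended at 4.01 and overlapped. The plot of pathway lists sets these ratios among the ligands, receptors and regulators of each family.

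**Figure D5:**
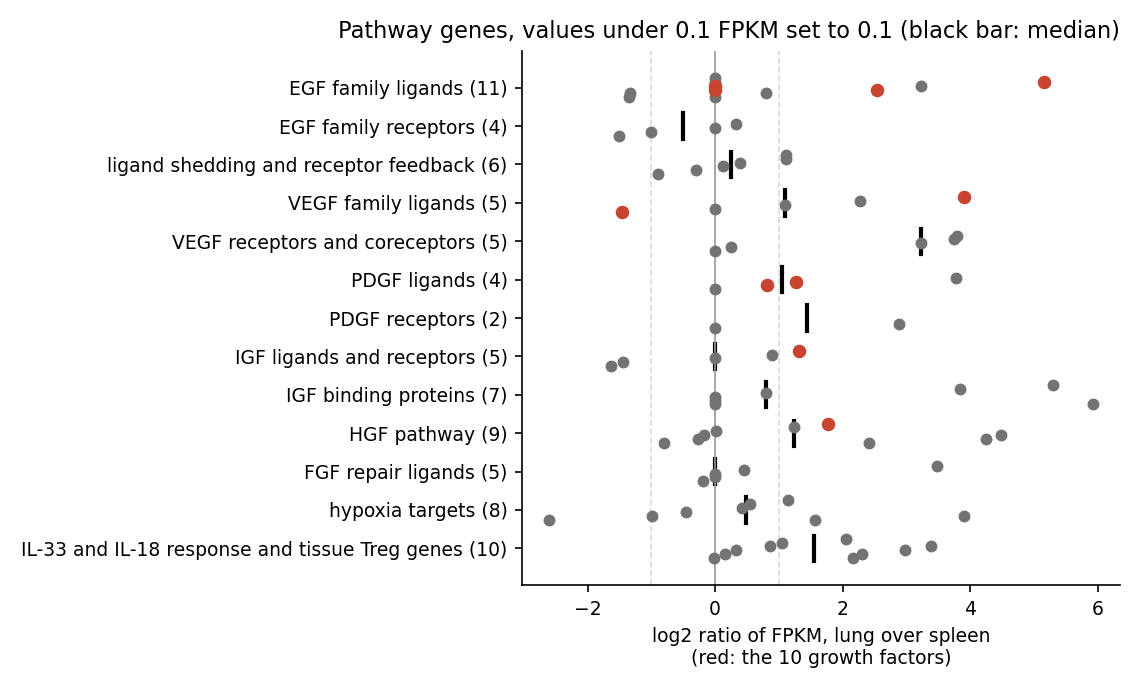
Log2 ratio of lung to splenic FPKM of each gene of 13 pathway lists after a floor of 0.1 FPKM, with the 10 growth factor genes in red, a black bar at the median of each list and dashed lines at 2-fold. The EGF ligand list has a median of 0 with Areg at 5.15, and the list of IL-33 and IL-18 response and tissue Treg genes has a median of 1.56.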

How the data were processed

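The deposited values are FPKM, which the authors computed with Cuffdiff 2.2.1 from 75-base single-end reads of SMART-Seq HT libraries. Mapping to mm10 used TopHat 2.1.1, with Bowtie2 at version 2.2.8 and SAMtools at version 0.1.18. The annotation and the scaling between libraries are not given in the sources used here. SMART-Seq HT is a PCR-based method without molecular identifiers. The libraries were assigned to tissues from their labels, 1 each.

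Ratios were computed after FPKM under 0.1 were set to 0.1, with thresholds of 2-fold and of 20-fold, the latter taken from the study. Reads were estimated from GENCODE M21 lengths of transcripts tied to RefSeq, with a fragment mean of 200, an SD of 80 and a shortest fragment of 75. An FPKM of 0.0964 in spleen and of 0.0849 in lung stood for 1 read at 1 kb of effective length. A length was found for 92.6% of symbols. Among genes with few reads, 73.0% in spleen and 75.1% in lung came within 0.1 of a whole number. Genes with several transcripts have approximate reads. For genes of like level, mean FPKM was within 1.5-fold.

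The growth factors, 13 pathway lists and 12 marker lists were chosen with earlier results of these data known. All 10 growth factors are named, and so may be any gene of these lists, Foxp3, and the 5 genes nearest to each growth factor in both log2 FPKM. The flanking genes of Areg, and the genes with a TGACGTCA window or with as high a lung level and ratio as Areg, were added after values had been seen. No count was tested. Other floors, pseudocounts, scalings and filters were tried. The steps were tested on simulated data. The tools were scipy 1.17.1, matplotlib 3.10.9, pandas 2.3.3 and numpy 2.4.6 under Python 3.11.15.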

Additional observations from a re-analysis of the deposited data

How the results depend on the processing

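No paired analysis was possible because there is 1 library per tissue, and for the same reason no library could be left out. The median log2 ratio of the 10 growth factors, 1.29 as reported, was 1.54 with a floor of 0.01 FPKM, 1.17 with a floor of 1 FPKM, 1.24 and 0.88 with pseudocounts of 0.1 and 1 FPKM, 0.86 after rescaling to TPM, 1.28 with the median log2 ratio of all genes set to 0 and 1.28 with equal upper quartiles, 1.77 over genes with at least 1 FPKM and 1.54 over genes above 0 in both libraries. The number more than 2-fold higher was 4 after rescaling to TPM, where Igf1 and Pdgfb were at 1.84-fold and 1.80-fold, and 7 with a floor of 0.01 FPKM. With thresholds of 4-fold, 3 were higher and 0 lower, with 10-fold 2 were higher and with 50-fold 0. The log2 ratio of Areg ranged from 4.72 to 5.15 and that of Vegfb from -1.89 to -1.12 over the settings tried. The ratio of Vegfa ranged from 1.47 to 3.90 on the log2 scale. Over the 8 settings that can change the ratio of a single growth factor, 73 values moved by less than their counting interval allows, 7 moved further (Vegfa in 2 settings, and Hbegf, Hgf, Areg, Igf1 and Ereg, which has no reads, in 1 each) and none that was above or below 0 changed sign. Tgfa, equal after the floor, ranged from -0.18 to 2.08 on the log2 scale. Depth limits Tgfa, Ereg, Pdgfa and the splenic value of Vegfa, each at fewer than 10 reads in at least 1 library.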

Other observations

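Few genes had the pattern of Areg. Small RNA genes left out, the genes nearest to it in the log2 FPKM of both libraries were S100a1 (7.59 FPKM in spleen and 181 in lung), Ctla2b (7.70 and 172), Gstm1 (6.31 and 134), Ear2 (9.24 and 205) and Ctsl (5.42 and 123). At distances of 0.43 and 0.48 log2 units, S100a1 and Ctla2b were the sole genes within 0.5 log2 units of Areg, while 72 genes lay that near to Hbegf, 37 to Vegfa, 163 to Vegfb, 112 to Pdgfb, 140 to Igf1 and 92 to Hgf. The nearest gene to Hbegf was Sorbs3, to Vegfa Fmn1, to Vegfb Pou6f1, to Pdgfb Luzp1, to Igf1 Fpr1 and to Hgf AI607873. Likeness over 2 libraries is a description of levels.

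Of the symbols, 600 had at least the lung FPKM of Areg, and 26 of these had at least its ratio as well. Of the 26, 17 were small RNA genes listed at 0 in spleen. The other 9 were Scgb1a1, a gene of airway club cells, Retnla, Spp1, Ccl6, Chil3, Lyz2 and Lyz1, which macrophages and other myeloid cells of the lung are known to express, and Cd63 and Wfdc17.

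Genes that share the TGACGTCA palindrome with Areg in the 250 bases before their start did not share its ratio as a group. Of 392 such symbols, 283 were at 1 FPKM or more in either library, 37 of these (13.1%) were more than 2-fold higher in lung, and their median log2 ratio was -0.0035, where 17.8% of all symbols at that level were more than 2-fold higher. More than 20-fold higher were 6 of the 283 (2.12%), where 3.27% of all symbols at that level were, namely Areg, Cds1, Dusp8, Epha2, Hlf and Pdlim3. The last 5 were at 4.34 FPKM or less in lung.

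Markers of other cells known to make amphiregulin were listed as well. Among mast cell and basophil genes, Mcpt8 was listed at 0 in both libraries, Cpa3 was at 0.620 FPKM in spleen and 0.0682 FPKM in lung, Ms4a2 at 0.608 and 0.0383, and Hdc at 2.20 and 11.8. Splenic and lung levels of Fcer1a were 0.708 and 1.25, and those of Kit 0.973 and 1.30. Of the 6 genes of that list, 3 were higher in lung, 1 of them by more than 2-fold. Another 2, Cpa3 and Ms4a2, were more than 2-fold lower, by folds that rest on the floor. Among all symbols 11.0% were more than 2-fold higher and 11.7% more than 2-fold lower. The list had sums of 5.11 (spleen) and 14.5 FPKM (lung). Of 6 genes of group 2 innate lymphoid cells, 4 were more than 2-fold higher in lung and none lower. The shares of all symbols were 11.0% and 11.7%, and the list had a median log2 ratio of 2.79. Il13 was listed at 0 in both libraries, Il5 at 0 in spleen and 4.87 FPKM in lung, Hs3st1 at 3.33 and 15.3, and Arg1, which macrophages also express, at 0.380 and 33.7. The list summed to 75.2 and 157 FPKM, of which Gata3 and Il1rl1, both also expressed by tissue Tregs, made up most. The 5 neutrophil genes listed were all higher in lung, as were 51.5% of symbols with at least 1 FPKM in either library. They summed to 425 and 1200 FPKM, the 5 dendritic cell genes to 9.87 and 53.5, the 5 B cell genes to 239 and 123, and the 5 endothelial genes to 55.0 and 38.8. The part of any of these cells in the level of Areg was not tested.

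Of 5 fibroblast growth factor genes known from epithelial repair, Fgf1 alone was more than 2-fold higher in lung and none was more than 2-fold lower. Among all symbols the shares were 11.0% and 11.7%. Splenic and lung levels of Fgf1, 0.130 and 1.45 FPKM, rest on about 5.10 and 64.2 reads, and the counting interval of its ratio runs from 4.59 to 35.9. Fgf2 was at 0.198 and 0.174, Fgf10 at 0.0884 and 0.136, and Fgf7 and Fgf18 were listed at 0 in both libraries.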
